A study of Mus musculus with 13 samples.

Results

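The difference between the tumor effects of 2 mouse models of high-grade glioma was measured gene by gene, as the Nestin tumor minus Nestin control difference less the NG2 tumor minus NG2 control difference. It was fitted over all 13 arrays of the study, with groups taken from the labels, for 11927 of the 18524 genes named on the array. Of its 45281 probes, 23904 were detected (detection p below 0.05) on at least 3 arrays, and 18876 of those had 1 gene symbol. The groups were 3 Nestin-creERT2 driven tumors, 3 Nestin-creERT2 controls, 4 NG2creERTM driven tumors and 3 NG2creERTM controls. Of the 5 NG2 tumors in the design text, 4 were analysed here. Mice carried tumor suppressor deletions made by Cre, and the labels name neither the deleted alleles, nor the agent that activated Cre, nor the age or strain, nor what the control mice carried. Tumors were harvested once neurological signs appeared, and control brain was taken at the matching position in control mice, without the brain region being named. Labels describe the tumors as independent and the controls as biological replicates.

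As background, creERT2 and creERTM are forms of Cre recombinase fused to an estrogen receptor domain, which enter the nucleus when tamoxifen binds. Nes encodes nestin, a filament protein used as a marker of neural stem cells, and Cspg4 encodes NG2, a proteoglycan on the surface of oligodendrocyte precursors and of pericytes. A driver gene marks the cells in which recombination starts, and the tumor that grows out may express another set of genes. Control brain differs between regions in its neurons, so a difference between tumor effects can lie in the tumors, in the brain they are set against, or in both.

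All values are log2 intensities after background correction and quantile normalization, so a difference of 1 is 2-fold. Raw median intensities were 116.9 to 209.1 and 43.46 to 47.52% of probes were detected, with tumors brighter than controls on every slide before normalization. Arrays correlated within groups at r = 0.937 to 0.96 for Nestin tumors, 0.982 to 0.983 for Nestin controls, 0.939 to 0.955 for NG2 tumors and 0.973 to 0.98 for NG2 controls. Of the 3 slides, the first carried 4 Nestin arrays (tumors 1 and 2, controls 1 and 2), the second carried 6 NG2 arrays (all tumors, controls 1 and 2) and the third carried Nestin tumor 3 and replicate 3 of either control group. No slide held tumors of both models, so slide and model cannot be told apart for the tumors other than through the controls. Control arrays expressed neuron markers, with a mean log2 level of 12.78 to 12.84 over the 5 measured markers in Nestin controls and 13.14 to 13.35 in NG2 controls. In tumors the oligodendrocyte progenitor markers Pdgfra, Cspg4, Olig1, Olig2 and Sox10 averaged 10.06 to 11.62 (Nestin) and 11.2 to 12.23 (NG2), against 9.217 to 9.709 in Nestin controls and 9.109 to 9.172 in NG2 controls.

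Of the 11927 genes, 453 had a difference of tumor effects past an adjusted p of 0.05 in limma (Benjamini-Hochberg over all genes), which is 3.8% of those tested. It was positive for 294 genes (2.46%), whose tumor effect was higher in the Nestin model, and negative for 159 (1.33%). The median over all genes was -0.01. Each model by itself changed far more genes: 5520 (46.3%) passed between Nestin tumors and Nestin controls, 24.4% of all genes higher and 21.9% lower, and 6043 (50.7%) between NG2 tumors and NG2 controls, 26.6% higher and 24.1% lower. Among the 453 genes, 123 fell in tumors of both models, 119 fell in NG2 tumors alone by the threshold, 64 fell in Nestin tumors alone, 44 rose in NG2 tumors alone, 43 rose in Nestin tumors alone and 27 rose in both. The other 33 passed in both models with opposite signs. With the slide as a fixed block 184 genes passed, 183 of them among the 453, and with the Nestin effect taken within slide 1 and the NG2 effect within slide 2, 73 passed and 70 were shared. Leaving out 1 array gave 237 to 631 genes, with 237 without NG2 control 3, 238 without Nestin control 3, 244 without Nestin control 2, 270 without NG2 control 2 and 276 without Nestin control 1.

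Of the 65 called genes named in the text, 43 passed with the slide as a fixed block and 32 within slides 1 and 2. Under the fixed block, the limma adjusted p was 0.0503 to 0.132 for the 22 others, which were Trh, Cdkn1a, Egfr, Glra2, Gjb6, Ntsr2, Slc1a2, Slc32a1, Sst, Ecrg4, Agt, Thy1, Dhh, Gata6, Rgs5, Cdc6, Smarce1, Mcm3, Kcne1l, Ntn5, Phlda3 and Fa2h. Within slides 1 and 2, where fewer arrays enter, Pcp4l1, Tox, Afap1l1, Gal, Gad1, Gad2, Igfbpl1, Cnp, Dlx2, Id1 and Becn1 did not pass either (limma adjusted p from 0.0644 to 0.154). All 65 kept their direction in both fits.

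The difference of tumor effects equals the difference between tumors (Nestin tumor minus NG2 tumor) less the difference between controls (Nestin control minus NG2 control), which allows each gene to be split into a tumor part and a control part. A gene was placed with the tumors where the tumor part was at least 3 times the control part in size, with the controls where the reverse held, and with both otherwise. By this division 142 of the 453 genes (1.19% of all genes tested) were carried by the tumors, 150 (1.26%) by the controls and 161 (1.35%) by both. The tumor class held 106 positive and 36 negative genes, the control class 93 and 57, and the class of both 95 and 66. Classes rest on size alone: in the class of both, the tumor part passed in limma for 95 of 161 genes and the control part for 40. Where the parts have opposite signs, their sum tests whether one is larger in size than the other. It passed in limma for 42 of 95 such genes of the tumor class and 54 of 83 of the control class. No count is given for the class of both. There the sum passed for Mcam (limma adjusted p = 0.023) and Plxnb3 (limma adjusted p = 0.032), for example, and not for Calb2 (limma adjusted p = 0.28). Where the signs are the same, the contrast of sizes is the difference of effects by which the genes were chosen and adds no test. The sum passed for 6.98% of all genes (4.33% positive and 2.65% negative). Over all genes, 1072 (8.99%) passed between Nestin tumors and NG2 tumors, 5.54% higher and 3.45% lower, and 414 (3.47%) between Nestin controls and NG2 controls, 1.69% higher and 1.78% lower.

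**Figure D1:**
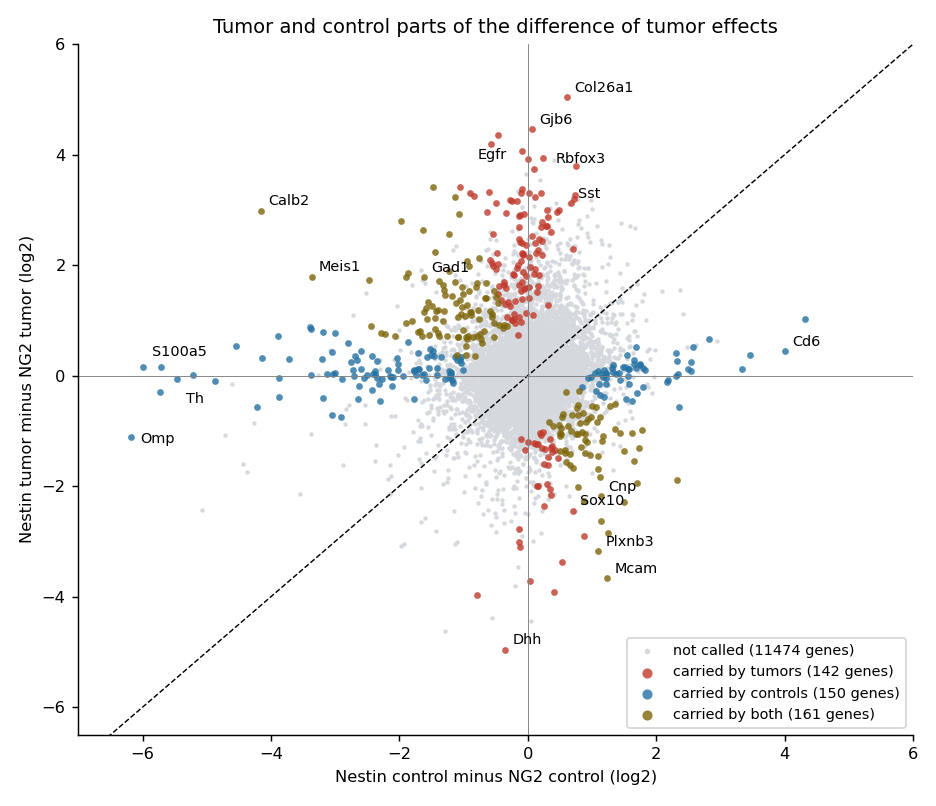
Each point is 1 of 11927 genes, placed by its control part (horizontal, log2) and its tumor part (vertical, log2), and colours mark the class of the 453 called genes. Vertical distance from the dashed line of equality is the difference of tumor effects; Th and S100a5 lie far left near 0 on the vertical axis, and Egfr and Gjb6 lie high near 0 on the horizontal axis.

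A promoter stretch of each of 3 genes is shown because 1 gene of each class holds the same letters there: Th of the control class, Sst of the tumor class and Mcam of the class of both. The capitals mark TGACGTCA, the palindromic cAMP response element, which reads alike on both strands, and sequences are from RefSeq with the build GRCm38.p6, read on the strand of the gene. They lie on the minus strand at chr7:142899996-142900080 (Th), on the minus strand at chr16:23890845-23890932 (Sst) and on the plus strand at chr9:44134589-44134657 (Mcam), and the motif begins 45, 48 and 29 bases before the annotated start.
Th: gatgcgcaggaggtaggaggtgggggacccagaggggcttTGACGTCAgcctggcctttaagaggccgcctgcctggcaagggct
Sst: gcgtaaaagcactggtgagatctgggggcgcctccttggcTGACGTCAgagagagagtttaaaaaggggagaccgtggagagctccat
Mcam: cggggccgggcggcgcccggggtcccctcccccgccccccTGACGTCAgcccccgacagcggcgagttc
In windows of 250 bases before to 50 after the start, the 8 letters were found in 549 of 27025 RefSeq genes (2.03%) and in 327 of the 9599 tested genes with a promoter in the table (3.41%). They were found in 11 of 346 called genes (3.18%), and in 6 of 79 positive genes of the tumor class (7.59%) and 2 of 79 positive genes of the control class (2.53%). In the class of both they were found in 1 of 71 positive (1.41%) and 2 of 49 negative genes (4.08%), and in 0 of 28 negative genes of the tumor class and 0 of 40 of the control class. A match is a description of the letters, and nothing about a factor was measured.

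Genes of the olfactory bulb, the forebrain region that receives the axons of the olfactory sensory neurons, led the control class. Those called were higher in NG2 controls than in Nestin controls and in the tumors of both models. Of 17 measured genes of the olfactory bulb list, 9 passed, all positive (against 2.46% of all genes), with 8 in the control class and Calb2 in the class of both. The median of the list was 2.31 for the difference of tumor effects, 0.11 for its tumor part and -2.43 for its control part, against -0.01 for the difference over all genes. With the slide as a fixed block, and likewise within slides 1 and 2, 8 of the 17 were positive calls, and 8 to 10 were without any 1 array.

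Th, tyrosine hydroxylase, the rate-limiting enzyme of dopamine synthesis, had log2 levels of 4.71, 4.64 and 4.53 in Nestin tumors and 4.95, 5.39 and 5.84 in Nestin controls. In the NG2 model it had 4.60, 4.80, 4.74 and 4.63 in tumors and 10.91, 10.65 and 11.01 in controls. The NG2 controls stood alone, and the remaining arrays lay near background at 4.53 to 5.84. Th was detected on 2 of the 3 Nestin controls and on no tumor array. Its Nestin tumor effect of -0.77 passed (limma adjusted p = 0.016). Its difference of tumor effects was 5.40 ± 0.32 (standard error; limma adjusted p = 4.6e-07), with a tumor part of -0.06 and a control part of -5.46. Slc6a3, the dopamine transporter, was not well above background in Nestin tumors, Nestin controls or NG2 tumors, at 4.63 to 5.33, and had 8.48, 8.08 and 9.07 in NG2 controls. Its level in Nestin controls was at least 8.7-fold lower than in NG2 controls (limma adjusted p = 4.8e-07).

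S100a5, a calcium-binding protein of olfactory sensory neurons, had 5.25, 4.68 and 4.68 in Nestin tumors, 5.08, 4.87 and 4.89 in Nestin controls, 4.66, 4.74, 4.68 and 4.73 in NG2 tumors and 10.30, 10.55 and 11.98 in NG2 controls. It was not detected on any array outside the NG2 controls, so Nestin controls were at least 46.2-fold lower than NG2 controls. A bound of this kind sets the bright group against the lowest detected signal of the dim arrays. Omp, olfactory marker protein of mature sensory neurons, averaged 5.33 ± 0.17 in Nestin tumors, 5.96 ± 0.52 in Nestin controls, 6.45 ± 0.84 in NG2 tumors and 12.14 ± 0.33 in NG2 controls (SD, n = 3, 3, 4 and 3). The second probe of Omp had a difference of 0.30 (limma adjusted p = 0.7). Stoml3, a stomatin-like protein of sensory cells, had at most 5.18 in Nestin tumors, Nestin controls and NG2 tumors, and 7.34, 7.55 and 7.59 in NG2 controls.

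Transcription factors of bulb neurons were in the same class. Tbx21 and Eomes, T-box factors of mitral and tufted cells, were not well above background in Nestin tumors, Nestin controls or NG2 tumors and reached 7.21, 7.41 and 8.08 (Tbx21) and 7.07, 6.40 and 7.13 (Eomes) in NG2 controls. Sp8 and Sp9, zinc finger factors of bulb interneurons, had control parts of -3.38 and -2.39, and the differences of effects were 3.40 ± 0.31 and 2.41 ± 0.26. Dlx2, a homeobox factor of precursors of GABA neurons, had 5.22, 5.54 and 5.51 in Nestin tumors, 5.67, 5.44 and 6.30 in Nestin controls, 6.12, 4.71, 4.78 and 4.67 in NG2 tumors and 8.004, 8.13 and 8.57 in NG2 controls. Tshz1, a zinc finger protein needed for bulb development, was expressed in every group, averaging 10.93 in Nestin tumors, 10.33 in Nestin controls, 11.20 across NG2 tumors and 12.76 across NG2 controls. It passed with opposite signs in the models, at 0.61 in Nestin tumors and -1.56 in NG2 tumors, each against its own controls.

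Neuropeptides and small calcium-binding proteins completed the leading genes. Doc2g, of the Doc2 family of vesicle proteins, had a difference of 5.44 ± 0.32 (limma adjusted p = 4.6e-07), and Scgn, the calcium-binding secretagogin, one of 5.23 ± 0.29 (limma adjusted p = 4.6e-07). Nppa, the precursor of atrial natriuretic peptide, Ms4a15, a four-span membrane protein, and Nmb, the precursor of neuromedin B, had differences of 5.08, 4.77 and 3.47. Trh, thyrotropin-releasing hormone, had 5.43, 5.10 and 9.41 in Nestin tumors, 5.88, 5.55 and 5.88 in Nestin controls, 7.63, 5.15, 5.31 and 7.87 in NG2 tumors and 11.21, 11.51 and 11.75 in NG2 controls. Gal, galanin, had 5.27, 4.67 and 8.25 in Nestin tumors, 4.60, 4.99 and 4.57 in Nestin controls, 4.63, 5.55, 4.81 and 6.39 in NG2 tumors and 7.996, 8.84 and 9.003 in NG2 controls. Nestin tumor 3 was above the other Nestin tumors for both peptides. Their differences, 5.88 ± 1.3 for Trh (limma adjusted p = 0.025) and 4.61 ± 0.98 for Gal (limma adjusted p = 0.02), did not pass without Nestin control 1 or 3 or NG2 control 2 or 3, and Trh also not without Nestin control 2. The values without those arrays were 5.75 to 5.93 for Trh (adjusted p = 0.0568 to 0.0703) and 4.42 to 4.55 for Gal (adjusted p = 0.0506 to 0.0628), and with the slide as a fixed block Trh had 5.75 (adjusted p = 0.0505).

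The 57 negative genes of the control class were higher in Nestin controls. The largest was Cd6, a scavenger receptor best known from T cells, with 4.84, 5.58 and 4.56 in Nestin tumors, 8.85, 8.98 and 8.60 in Nestin controls, 4.62, 4.61, 4.56 and 4.43 in NG2 tumors and 4.70, 4.96 and 4.76 in NG2 controls. Nestin controls were at least 10.8-fold above NG2 controls, where it was not detected on any array (limma adjusted p = 2.8e-07). Cd3e, the lymphocyte marker that was measured, ran from 5.018 to 5.977 in Nestin controls and from 4.815 to 5.684 in NG2 controls, and its part in the Cd6 result was not tested.

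**Figure D2:**
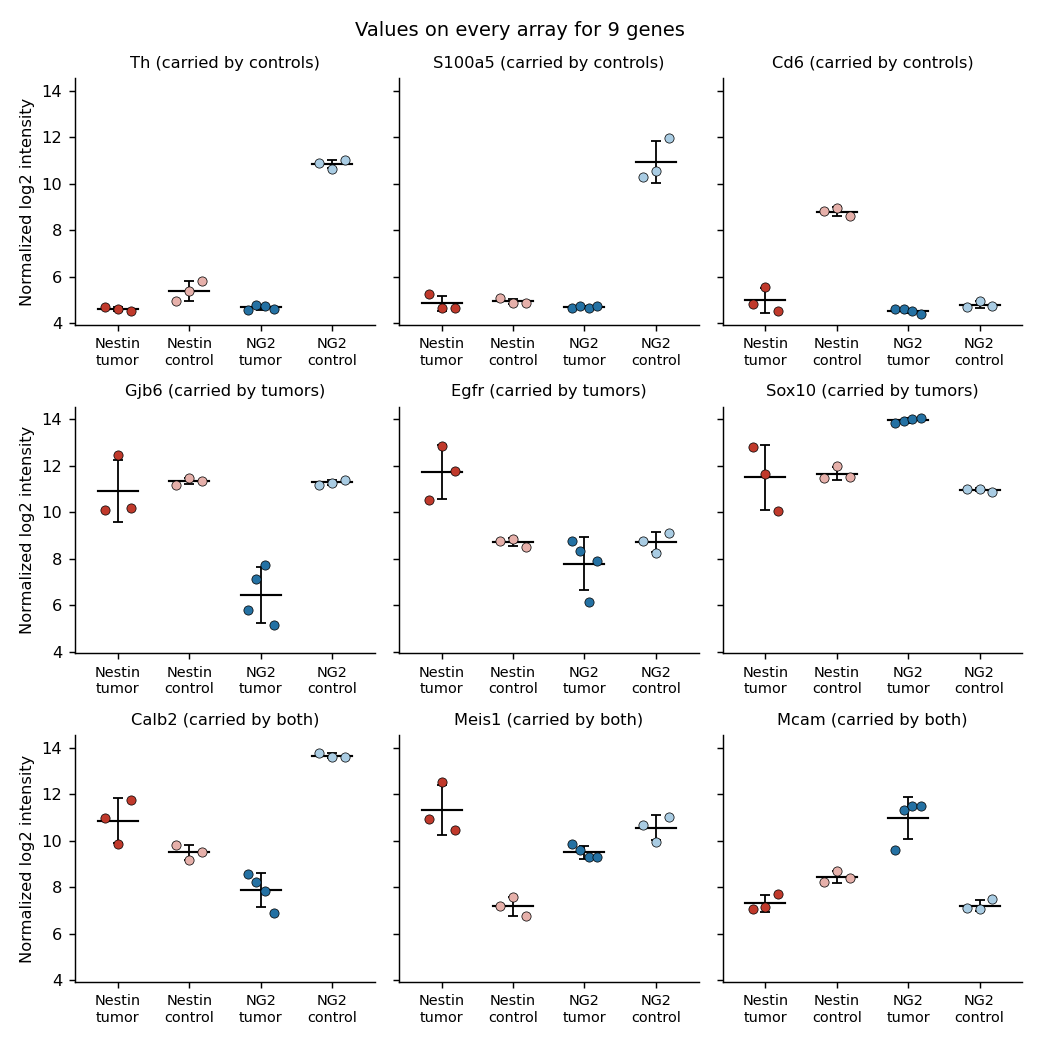
Normalized log2 intensity of 9 genes on each of the 13 arrays, with the group mean (line) and SD (bar) for 3, 3, 4 and 3 arrays. The top row is high in 1 control group alone, and the middle row differs between the tumors, with control parts of 0.70 (Sox10) or less. The bottom row holds genes of the class of both, of which Mcam had a control part (1.24) that did not pass (limma adjusted p = 0.17).

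The positive genes of the tumor class were higher in Nestin tumors than in NG2 tumors. Their control parts were smaller in size but not always small, for example 0.06 for Gjb6 and -1.06 for Cbln4. Neuronal and astrocyte genes and the receptor gene Egfr were among these positive genes. In such bulk samples, fewer cells of a type and less RNA per cell cannot be told apart.

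Egfr, the receptor of epidermal growth factor, had 10.54, 12.84 and 11.77 in Nestin tumors, 8.78, 8.83 and 8.51 in Nestin controls, 8.77, 8.33, 6.15 and 7.93 in NG2 tumors and 8.78, 8.25 and 9.10 in NG2 controls. All 3 Nestin tumors were above every other array and the control groups overlapped, at a control part of 0.00. Nestin tumors averaged 15.2-fold over NG2 tumors, and the difference of effects was 3.93 ± 0.84 (limma adjusted p = 0.02). It did not pass without Nestin control 3 or NG2 control 3 (3.73 and 3.83 as lowest and highest values, adjusted p = 0.0557 and 0.0633), or with the slide as a fixed block (3.73, adjusted p = 0.0877). Of its 5 probes, 4 passed at 3.68 to 4.29 when all kept probes were fitted, and the other had 2.06 (limma adjusted p = 0.103). Id1, an inhibitor of differentiation factors that is active in neural stem cells, had 10.59, 10.67 and 10.81 in Nestin tumors, 8.05, 7.59 and 8.33 in Nestin controls, 9.54, 9.20, 9.46 and 9.12 in NG2 tumors and 8.08, 8.99 and 8.18 in NG2 controls. It rose in tumors of both models, and further in the Nestin model by 1.79 ± 0.38 (limma adjusted p = 0.018, and 0.0568 at 1.59 without Nestin control 2). Egfr and Id1 were the 2 of 16 measured neural stem and progenitor genes that passed, both positive (against 2.46% of all genes).

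Of 18 measured astrocyte genes, 3 passed (against 2.46% of all genes), all positive and in the tumor class, and the median of the list was 1.38. Gjb6, the gap junction protein connexin 30, had 10.08, 12.45 and 10.20 in Nestin tumors, 11.19, 11.48 and 11.35 in Nestin controls, 5.78, 7.15, 7.73 and 5.14 in NG2 tumors and 11.18, 11.27 and 11.39 in NG2 controls. The NG2 tumors were below every other array, and their mean was 28.4-fold under NG2 controls. Ntsr2, a neurotensin receptor of astrocytes, and Slc1a2, the main astrocyte glutamate transporter, also lay near their controls in Nestin tumors, with differences of effects of 3.42 ± 0.71 and 2.51 ± 0.58. The call of Ntsr2 did not hold without NG2 control 2 (3.27, adjusted p = 0.0512). That of Slc1a2 did not hold without Nestin tumor 2 or without any 1 of the 6 controls (2.26 to 2.64, adjusted p = 0.0551 to 0.0793), and of its 2 other probes 1 passed at 2.32 and 1 had 0.42 (limma adjusted p = 0.714). With the slide as a fixed block, and within slides 1 and 2, 0 of the 3 passed (limma adjusted p from 0.0577 to 0.165), while the list medians were 1.34 and 1.6. Gfap, the astrocyte intermediate filament, had a difference of 1.77 with a 95% interval of 0.23 to 3.31 that did not pass (limma adjusted p = 0.2, and 0.0303 without NG2 tumor 1, at 2.26). Agt, angiotensinogen, which astrocytes secrete in brain, rose in Nestin tumors to 9.29, 12.66 and 9.82, against 5.75, 5.84 and 6.17 in Nestin controls, and had 7.30, 6.94, 7.63 and 7.52 in NG2 tumors, against 6.61, 6.68 and 6.998 in NG2 controls.

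Rbfox3, Gria1 and Sst, neuronal genes of the tumor class, fell in both models and further in NG2 tumors. Rbfox3, which encodes the neuronal nuclear protein NeuN, had 11.64, 10.58 and 11.77 in Nestin tumors, 13.83, 13.83 and 13.94 in Nestin controls, 7.48, 7.21, 8.26 and 6.63 in NG2 tumors and 13.84, 13.78 and 13.28 in NG2 controls. The tumor groups did not overlap and the controls were alike, and the difference of effects was 3.70 ± 0.51 (limma adjusted p = 0.0013). Gria1, a glutamate receptor subunit, differed by 4.83 ± 0.60 (limma adjusted p = 5e-04), with a fall of 1.30 in Nestin tumors and of 6.13 in NG2 tumors, each against its controls. Sst, somatostatin, an interneuron peptide, had 7.83, 8.15 and 8.002 in Nestin tumors, 12.19, 11.51 and 12.11 in Nestin controls, 4.51, 4.62, 5.60 and 4.76 in NG2 tumors and 10.61, 11.83 and 11.36 in NG2 controls. It was detected in 1 of the 4 NG2 tumors, so that the difference of 2.45 rests on values near background in that group, and with no background correction it was 0.74 (limma adjusted p = 0.303). Glra2 and Cbln4, a glycine receptor subunit and a synapse organiser, were not detected in any NG2 tumor and were at least 12.6-fold and 6.6-fold higher in Nestin tumors. The call of Glra2 (4.77 ± 0.99) did not hold without Nestin control 3 or NG2 control 3 (4.49 and 4.69 as lowest and highest, adjusted p = 0.0519 and 0.052).

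Among 17 measured pan-neuronal genes, Rbfox3 and Thy1, a neuronal surface protein, were positive calls (against 2.46% of all genes), and the median was 1.25. Thy1 had 2.56 ± 0.62 (limma adjusted p = 0.035), which 9 of the 13 leave-out fits did not keep: those without Nestin tumor 2 or 3, NG2 tumor 4, or any 1 of the 6 controls (2.29 to 2.66, adjusted p = 0.0542 to 0.0954). Its second probe had -0.55 (limma adjusted p = 0.485). The neuron markers were Rbfox3, Syt1, Slc17a7, Gad1 and Gad2, of which 3 passed: Rbfox3, and Gad1 and Gad2 of the class of both. Their mean thus holds genes already called here and is no separate check. It was 9.042 to 10.55 across Nestin tumors (Nestin controls 12.78 to 12.84) and 6.77 to 8.131 across NG2 tumors (NG2 controls 13.14 to 13.35). Astrocyte markers (Gfap, Aqp4, Aldh1l1 and Slc1a3, 0 of 4 called) averaged 10.92 to 12.23 across Nestin tumors (Nestin controls 11.09 to 11.42) and 9.95 to 10.84 across NG2 tumors (NG2 controls 11.34 to 11.6). Whether brain tissue within the tumor samples had a part in these differences was not tested.

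Col26a1, a collagen chain, rose in Nestin tumors and fell in NG2 tumors. It had 10.32, 9.23 and 11.09 in Nestin tumors, 7.72, 7.65 and 7.12 in Nestin controls, 5.37, 4.95, 5.42 and 4.96 in NG2 tumors and 6.82, 6.99 and 6.87 in NG2 controls, a tumor part of 5.04 and a control part of 0.61. These are levels of the brighter of its 2 probes, and the other had a difference of 0.26 (limma adjusted p = 0.68). Ecrg4, which encodes a secreted peptide precursor, rose in Nestin tumors to 7.62, 9.36 and 10.71, against 6.72, 5.69 and 5.90 in Nestin controls, and did not pass in NG2 tumors (-1.03). Its call, with that of Agt, did not hold without NG2 control 3 (3.89 and 3.97, adjusted p = 0.0519 and 0.0529).

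The 36 negative genes of the tumor class were higher in NG2 tumors. Sox10, the transcription factor of the oligodendrocyte and neural crest lineages, had 12.81, 11.65 and 10.03 in Nestin tumors, 11.49, 11.98 and 11.52 in Nestin controls, 13.82, 13.92, 13.996 and 14.04 in NG2 tumors and 11, 10.99 and 10.89 in NG2 controls. The NG2 tumors were above every other array and close to each other, whereas the Nestin tumors spread on both sides of their controls. Its difference of effects was -3.15 ± 0.64 (limma adjusted p = 0.015). Sox10 was the only gene of 22 measured oligodendrocyte progenitor genes to pass (against 1.33% of all genes for negative calls), and the list median was -0.59. Gpr17, a receptor of committed oligodendrocyte progenitors, had 11.17, 11.17 and 7.27 in Nestin tumors, 9.38, 9.53 and 9.13 in Nestin controls, 12.96, 12.53, 12.38 and 12.99 in NG2 tumors and 9.40, 9.35 and 8.69 in NG2 controls. Nestin tumor 3 set it apart: the difference was -3.05 (95% interval -5.23 to -0.87, limma adjusted p = 0.11) over all arrays and -1.75 (limma adjusted p = 0.0199) without that tumor.

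Dhh, desert hedgehog, a ligand made by Schwann cells, had 5.36, 6.09 and 5.04 in Nestin tumors, 4.77, 4.52 and 4.71 in Nestin controls, 9.48, 8.13, 12.49 and 11.74 in NG2 tumors and 4.98, 4.71 and 5.40 in NG2 controls. With Sox10 it was 1 of the 2 of 17 neural crest and Schwann genes that passed, both negative (against 1.33% of all genes), and the list median was -0.73. The call of Dhh (-4.60 ± 1.1, limma adjusted p = 0.037) was lost without Nestin tumor 1 or 3, NG2 tumor 4 or any 1 of the 6 controls (-4.79 to -4.18, adjusted p = 0.0602 to 0.0905), and with the slide as a fixed block (-4.79, adjusted p = 0.101). Ngfr and Cdh19, the Schwann and neural crest markers measured, averaged 5.619 to 6.26 across Nestin tumors (Nestin controls 6.27 to 6.602) and 6.855 to 10.28 across NG2 tumors (NG2 controls 6.901 to 7.222), with 0 of the 2 called, and their part was not tested. Erbb3, a neuregulin receptor of the same lineages, was detected on all 4 NG2 tumor arrays and on no other array, at 5.84, 5.71, 7.35 and 6.63. Its difference of -1.67 did not pass (limma adjusted p = 0.055), and passed without NG2 tumor 1, 2 or 3 (-1.90 to -1.35, adjusted p = 0.0197 to 0.0349). Myo5b, a motor of membrane recycling, fell in Nestin tumors to 5.38, 5.16 and 6.95, against 9.85, 10.14 and 9.74 in Nestin controls, and had 9.06, 8.70, 11.10 and 10.16 in NG2 tumors, against 9.13, 9.75 and 9.64 in NG2 controls. Its second probe had -1.89 (limma adjusted p = 0.132). Gata6, a zinc finger factor of mesoderm and endoderm, differed by -3.74 ± 0.97 (limma adjusted p = 0.048), and its call held only without Nestin tumor 3 or NG2 tumor 1 among the leave-out fits (the others -3.85 to -3.26, adjusted p = 0.0604 to 0.108). The second probe of Gata6 had -1.31 (limma adjusted p = 0.148). Atp10b, a phospholipid flippase, had 5.82, 4.54 and 4.55 in Nestin tumors, 5.88, 6.09 and 5.67 in Nestin controls, 7.32, 8.002, 8.22 and 7.97 in NG2 tumors and 5.11, 4.65 and 5.25 in NG2 controls.

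Of 18 measured DNA replication genes, 2 were negative calls (against 1.33% of all genes). Cdc6, which loads the helicase at origins, and Mcm3, a helicase subunit, rose in tumors of both models and further in NG2 tumors. Cdc6 had 7.86, 7.17 and 7.44 in Nestin tumors, 5.33, 5.38 and 4.95 in Nestin controls, 8.88, 8.55, 8.50 and 9.33 in NG2 tumors and 4.66, 4.90 and 5.33 in NG2 controls, and its difference was -1.59 ± 0.40 (limma adjusted p = 0.042). Its call was lost in 10 leave-out fits (-1.77 to -1.42, adjusted p = 0.0519 to 0.112), those without Nestin tumor 2 or 3, NG2 tumor 1 or 4, or any 1 of the 6 controls. Mcm3 (-1.91 ± 0.40, limma adjusted p = 0.018) was in the class of both and lost its call without Nestin control 2 or 3 or NG2 control 3 (-1.87 to -1.78, adjusted p = 0.0518 to 0.0571). Neither its tumor part of -0.84 nor its control part of 1.07 passed (limma adjusted p = 0.073 and 0.068). Mcm3 was detected on 1 of the 3 NG2 control arrays, so its NG2 effect rests on values near background. The list median was -0.37. Of 13 mitosis genes 0 passed, with a median of -0.50 for the difference, 5.15 for the Nestin effect and 5.84 for the NG2 effect.

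In all 161 genes of the class of both, the tumor part and the control part had opposite signs. The selection largely brings this about, since parts of the same sign and similar size mostly cancel in the difference of effects. For most of these genes the sign of the control part is not settled, as it passed in limma for 40. Calb2, which encodes calretinin, a calcium-binding protein of interneurons, had the largest positive difference of all called genes, 7.13 ± 0.61 (limma adjusted p = 1.9e-05). It had 10.97, 9.84 and 11.76 in Nestin tumors, 9.82, 9.16 and 9.53 in Nestin controls, 8.56, 8.22, 7.83 and 6.89 in NG2 tumors and 13.77, 13.58 and 13.61 in NG2 controls. NG2 controls were the highest and NG2 tumors the lowest arrays, and both Nestin groups lay between. Its tumor part was 2.98 and its control part -4.15, and its second probe had 7.08.

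GABA neuron genes were spread over all 3 classes. Of 15 measured, 8 passed, all positive (against 2.46% of all genes), with 2 in the tumor class (Slc32a1 and Sst), 3 in the control class (Dlx2, Sp8 and Sp9) and 3 in the class of both (Calb2, Gad1 and Gad2), and the list median was 2.45. Gad1, an enzyme of GABA synthesis, had 10.19, 9.62 and 10.46 in Nestin tumors, 11.85, 11.84 and 11.80 in Nestin controls, 7.96, 9.17, 8.52 and 7.59 in NG2 tumors and 13.43, 13.08 and 13.81 in NG2 controls. Its parts were nearly equal in size, 1.78 between tumors and -1.61 between controls. Gad2, the second GABA-synthesizing enzyme, differed by 4.36 ± 0.82, and Slc32a1, the vesicular GABA transporter, by 4.20 ± 0.91. The call of Slc32a1 did not hold without Nestin control 1 or 3 or NG2 control 2 or 3 (4.13 to 4.22, adjusted p = 0.0534 to 0.0592). The list kept 6 positive calls with the slide as a fixed block and had 3 positive and 1 negative within slides 1 and 2. Lists overlapped, and Calb2, Sp8 and Eomes among others counted in more than 1 of them.

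The neuroblast list had 5 positive calls of 18 (against 2.46% of all genes), of which 4 were in the control class. Igfbpl1, a growth factor binding-like protein of young neurons, was in the class of both, with 6.55, 8.92 and 7.74 in Nestin tumors, 6.08, 5.66 and 4.60 in Nestin controls, 5.80, 5.11, 4.83 and 4.64 in NG2 tumors and 7.48, 6.83 and 6.92 in NG2 controls. Dcx, a microtubule protein of migrating neuroblasts, differed by 3.58 (95% interval 1.39 to 5.78) and did not pass (limma adjusted p = 0.067). It passed without NG2 tumor 2 or 4 (2.78 and 4.17 as lowest and highest, adjusted p = 0.0175 and 0.0298).

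Meis1, a homeobox factor of the developing forebrain, had 10.93, 12.52 and 10.46 in Nestin tumors, 7.19, 7.58 and 6.78 in Nestin controls, 9.87, 9.60, 9.28 and 9.29 in NG2 tumors and 10.67, 9.96 and 11.02 in NG2 controls. It rose by 4.12 in Nestin tumors against Nestin controls and fell by 1.04 in NG2 tumors against NG2 controls. Nestin controls were below every other array, with a control part of -3.37 and a tumor part of 1.79. Alx4, another homeobox factor, had the same signs, at 2.06 and -2.15, and its second probe had 0.40 (limma adjusted p = 0.411). Kcne1l, a potassium channel accessory subunit, had 10.41, 11.46 and 9.88 in Nestin tumors, 7.19, 7.22 and 7.32 in Nestin controls, 5.21, 9.05, 7.61 and 6.78 in NG2 tumors and 8.54, 8.997 and 8.61 in NG2 controls. Pcp4l1, a calmodulin-binding-like protein of neurons, fell in both models, by 1.34 in Nestin tumors against Nestin controls and by 6.11 in NG2 tumors against NG2 controls.

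Myelin genes were the negative counterpart. Of 15 measured, 4 passed (26.7%, against 1.33% of all genes), all negative and all in the class of both, and the list medians were -1.45 for the difference, -0.55 for the tumor part and 1.14 for the control part. By these medians the list was higher in Nestin controls than in NG2 controls, and lower in Nestin tumors than in NG2 tumors. Between tumors, 5 of the 15 passed lower in Nestin tumors (against 3.45% of all genes) and 1 passed higher (against 5.54%). The oligodendrocyte markers Mbp, Mog, Mag and Cnp, of which 1 of 4 was called, overlapped between the tumor groups. Their mean was 8.947 to 10.26 across Nestin tumors (Nestin controls 12.47 to 13.09). Across NG2 tumors it was 8.796 to 11.02 (NG2 controls 11.57 to 12.08). Cnp, an enzyme of myelin-forming oligodendrocytes, had 8.18, 9.21 and 8.09 in Nestin tumors, 11.43, 11.93 and 11.86 in Nestin controls, 10.88, 10.17, 11.74 and 9.93 in NG2 tumors and 10.24, 11.03 and 10.54 in NG2 controls. Ugt8a, which makes the myelin lipid galactosylceramide, fell by 1.64 in Nestin tumors and rose by 1.33 in NG2 tumors, each against its controls. Cldn11, the tight junction protein of myelin, fell by 0.55 in Nestin tumors against Nestin controls and rose by 1.26 in NG2 tumors against NG2 controls, a difference of -1.81 ± 0.25 (limma adjusted p = 0.0013). Fa2h, an enzyme of myelin lipid synthesis, had -2.27 ± 0.58 (limma adjusted p = 0.045). Its call was lost without any 1 Nestin tumor, Nestin control 2 or 3, NG2 tumor 3 or any 1 NG2 control (-2.46 to -1.95, adjusted p = 0.0522 to 0.121). With the slide as a fixed block 3 of the 15 passed and within slides 1 and 2 there were 2.

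**Figure D3:**
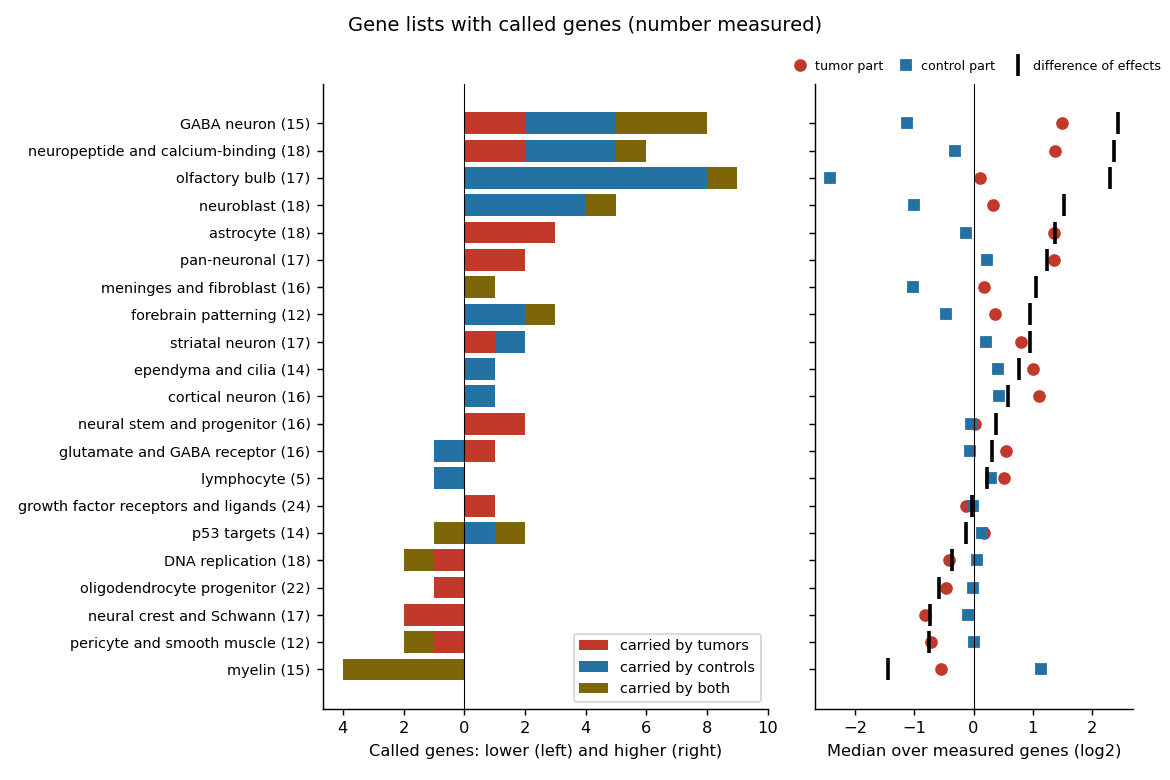
The 21 gene lists with at least 1 called gene, with the number of measured genes in brackets: left, called genes by direction and class; right, medians over the measured genes of the difference of tumor effects, its tumor part and its control part (log2). The olfactory bulb list (9 called) sits at a control part of -2.43 and a tumor part of 0.11, and the myelin list (4 called, negative) at 1.14 and -0.55.

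Mcam, a cell adhesion protein of vessels and of melanoma cells, had the largest negative difference, -4.90 ± 0.58 (limma adjusted p = 0.00032). It had 7.05, 7.17 and 7.71 in Nestin tumors, 8.24, 8.71 and 8.39 in Nestin controls, 9.60, 11.32, 11.49 and 11.49 in NG2 tumors and 7.10, 7.05 and 7.48 in NG2 controls, so that every NG2 tumor was above every other array. All 3 of its probes passed. Rgs5, a pericyte regulator of G protein signalling and the other negative call among 12 pericyte and smooth muscle genes (against 1.33% of all genes), had 8.05, 7.86 and 7.69 in Nestin tumors, 8.29, 8.91 and 8.40 in Nestin controls, 9.11, 9.21, 8.95 and 9.56 in NG2 tumors and 8.68, 7.94 and 7.70 in NG2 controls. It lost its call without Nestin tumor 3, Nestin control 2 or 3 or NG2 control 2 or 3 (-1.83 to -1.57, adjusted p = 0.0518 to 0.0785). The pericyte markers Pdgfrb, Rgs5, Acta2 and Myh11, of which 1 of 4 passed, averaged 6.953 to 7.43 across Nestin tumors (Nestin controls 7.392 to 7.733) and 7.486 to 7.951 across NG2 tumors (NG2 controls 7.255 to 7.766). Plxnb3, a semaphorin receptor of the oligodendrocyte lineage, and Sh3tc2, a protein needed for peripheral myelin, had differences of -4.27 ± 0.53 and -4.10 ± 0.66. Both rose in NG2 tumors and fell in Nestin tumors, each against its own controls. The second probe of Sh3tc2 had -1.04 (limma adjusted p = 0.178). Tox, a DNA-binding factor, fell by 4.06 in Nestin tumors against Nestin controls and had -0.29 in NG2 tumors against NG2 controls, and Ntn5, a netrin, fell by 3.72 in Nestin tumors and had 0.47 in NG2 tumors.

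The 33 genes that passed with opposite signs were 17 that rose in Nestin tumors and fell in NG2 tumors and 16 that did the reverse, all by their own limma tests in each model. Of these, 22 were in the class of both, 7 in the control class and 4 in the tumor class. The first group was led in size by Calb2, Meis1, Col26a1, Igfbpl1 and Alx4 and the second by Mcam, Plxnb3, Sh3tc2, Atp10b and Afap1l1, a protein linked to actin filaments. The tumors themselves could lie closer than their effects: for Meis1 the tumor groups stood 1.79 apart and the effects 5.16 apart.

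**Figure D4:**
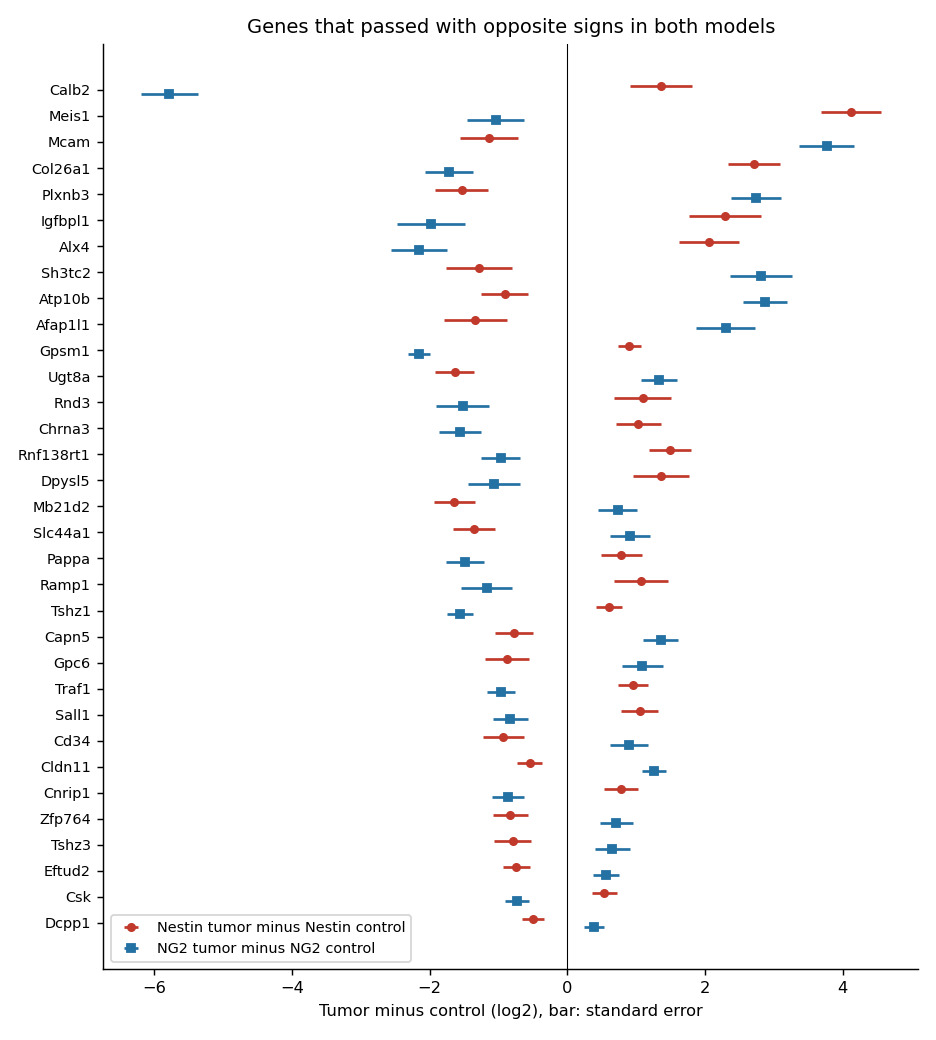
Tumor minus control (log2, with standard error) in the Nestin model (circles) and the NG2 model (squares) for the 33 genes that passed in both with opposite signs, ordered by the size of the difference. Calb2 spans 1.36 to -5.78, and Mcam -1.14 to 3.77.

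Of 14 measured p53 targets, 3 passed (against 3.8% of all genes), and the list median was -0.13. Bbc3, the pro-apoptotic PUMA, had 9.77, 9.76 and 9.74 in Nestin tumors, 7.90, 7.84 and 7.74 in Nestin controls, 8.59, 8.81, 8.67 and 8.56 in NG2 tumors and 8.89, 8.88 and 8.37 in NG2 controls, a difference of 1.98 ± 0.29, but its 2 other probes had 0.36 and 0.34 and did not pass (limma adjusted p = 0.582 and 0.65). Cdkn1a, the cell cycle inhibitor p21, was in the control class: tumors of both models had 8.42 to 9.43, Nestin controls 6.86 to 7.15 and NG2 controls 8.27 to 8.80. Its difference of 1.67 ± 0.39 (limma adjusted p = 0.032) did not pass without Nestin tumor 3, any 1 Nestin control, NG2 tumor 4 or NG2 control 2 or 3 (1.46 to 1.74, adjusted p = 0.053 to 0.0872). Phlda3, a p53-induced inhibitor of Akt, had -2.40 ± 0.60 (limma adjusted p = 0.043), and 10 leave-out fits did not keep it (-2.63 to -2.03, adjusted p = 0.0558 to 0.116), those without Nestin tumor 1 or 2, NG2 tumor 3 or 4, or any 1 of the 6 controls. Its second probe had -2.11 (limma adjusted p = 0.0594). Nes differed by 0.25 (95% interval -0.78 to 1.28), with 8.91, 9.18 and 9.81 in Nestin tumors and 9.12, 9.13, 10.16 and 8.89 in NG2 tumors. Cspg4 differed by -1.39 (95% interval -2.76 to -0.02, limma adjusted p = 0.26), with 9.69, 8.13 and 8.13 in Nestin tumors and 9.51, 9.59, 8.92 and 10.83 in NG2 tumors. Pdgfra and Olig2, a growth factor receptor and a transcription factor of oligodendrocyte progenitors, differed by -0.99 (95% interval -2.32 to 0.35) and -0.80 (95% interval -1.85 to 0.26). Nf1, a Ras GTPase-activating protein and tumor suppressor, differed by -0.66 (95% interval -1.90 to 0.59), and since the labels do not say what was deleted, its level is no check of the genotype. A p that misses the threshold does not show that the models are alike.

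Of the 38 gene lists, 17 had 0 called genes in the difference of tumor effects by limma (against 3.8% of all genes). With 4 to 21 measured genes each, 0 calls lies near that share and does not show that the models are alike. These 17 lists had medians of the difference from -0.50 (mitosis) to 1.85 (choroid plexus). They were mitosis, interferon response, antigen presentation, microglia and macrophage, neutrophil, extracellular matrix, mesenchymal glioma, endothelium, Hox, the patterning genes of diencephalon, midbrain and hindbrain, choroid plexus, erythrocyte, hypoxia and glycolysis, MAPK output, immediate early genes, sex-linked genes and the Cre driver genes. The interferon list had medians of 2.74 in the Nestin model and 2.94 in the NG2 model with a difference of 0.48, and the mesenchymal glioma list 2.86 and 2.85 with -0.30. Hoxa7, a homeobox gene that patterns the posterior body axis, was not detected in controls of either model and reached 11.67, 10.40 and 10.56 in Nestin tumors and 9.95, 8.70, 8.40 and 6.93 in NG2 tumors. Its difference of 2.35 (95% interval 0.71 to 3.99) did not pass (limma adjusted p = 0.11), and passed at 2.84 without NG2 tumor 1 (limma adjusted p = 0.0202). Top2a, a topoisomerase of dividing cells, and Vcan, a matrix proteoglycan, differed by -1.68 (95% interval -2.81 to -0.55) and -1.82 (95% interval -3.13 to -0.51), with adjusted p-values of 0.094 and 0.12 by limma. Without NG2 tumor 2, Vcan passed at -2.18 (limma adjusted p = 0.0288). Of its 5 probes, those not shown had -1.15 to -0.26 over all arrays (limma adjusted p = 0.122 to 0.819). The second probe of Top2a had -0.66 (limma adjusted p = 0.478).

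Calls were also read in the order of genes along the chromosomes, a property that the contrast did not use. Against 3.8% of all genes, chromosome 11 held 60 called genes of 1011 (5.93%), chromosome 2 held 53 of 916 (5.79%) and chromosome 19 held 7 of 421 (1.66%). Medians of the difference over a chromosome ran from -0.28 on chromosome 4 to 0.29 on chromosome 2, both lying in the tumor part (-0.27 and 0.32), with control parts of 0.01 and 0.03. The 11906 genes with a place in the RefSeq table were cut into 188 blocks of 60 neighbours, the last block of a chromosome holding 60 to 119. The highest block medians, 1.05 and 0.895, were those of the first and second block of chromosome 11, and the lowest, -0.55, was that of the third block of chromosome 4. In the first block of chromosome 11, 93.3% of the 60 genes had a positive difference, where the median over all genes was -0.01. In that block 12 genes were called (against 3.8% of all genes), 11 of them positive (against 2.46%). Its median difference from the controls was 1.21, 1.45 and 0.68 in Nestin tumors 1, 2 and 3, and 0.16, 0.17, 0.07 and 0.23 in NG2 tumors 1 to 4. In the second block, which holds Egfr, it was 1.05, 1.62 and 0.65 in the Nestin tumors and 0.18, 0.06, 0.01 and 0.52 in the NG2 tumors. The Nestin tumors parted in the third block, at 1.11, -0.16 and 0.296.

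The twelfth and thirteenth blocks of chromosome 11 lay at the other end, with block medians of -0.44 and -0.48. They hold Smarce1, a subunit of a chromatin remodelling complex, Cdc6, and Becn1, an autophagy protein. Becn1 had 8.70, 8.67 and 9.36 in Nestin tumors, 10.06, 10.72 and 10.53 in Nestin controls, 10.23, 10.07, 10.54 and 10.76 in NG2 tumors and 10.24, 10.20 and 9.48 in NG2 controls, a difference of -1.95 ± 0.39 (limma adjusted p = 0.015), while its 2 other probes had -0.75 and -1.45 (limma adjusted p = 0.408 and 0.0817). Smarce1 had 9.98, 9.999 and 10.45 in Nestin tumors, 10.45, 10.37 and 10.52 in Nestin controls, 11.78, 11.18, 11.41 and 11.57 in NG2 tumors and 10.56, 10.39 and 10.54 in NG2 controls, a difference of -1.29 that did not pass without Nestin control 3 (-1.26, limma adjusted p = 0.0517). Control parts of the first, second, twelfth and thirteenth blocks were -0.01, -0.06, 0.17 and -0.08. DNA was not measured.

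**Figure D5:**
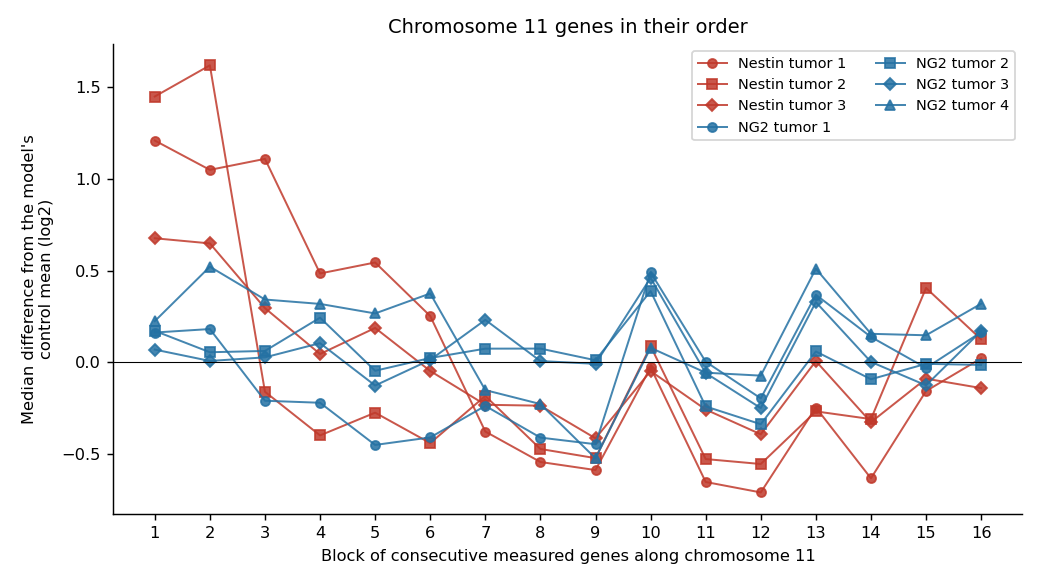
Median difference from the mean of the model's own controls (log2) over 16 consecutive blocks of measured genes along chromosome 11, 1 line per tumor. The 3 Nestin tumors are at 0.65 to 1.62 in the first and second block, where the NG2 tumors are at 0.01 to 0.52, and the lines of both models cross further along.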

How the data were processed

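Total RNA from flash-frozen mouse tissue was hybridised to single-colour Illumina arrays, 1 sample each. The authors deposited non-normalized intensity values, with a detection p-value beside each per the file headers; no source used here says whether background was subtracted. A second deposited table, of 38563 probes, holds processed values that their range shows to be log2; its columns matched their own arrays at r of at least 0.999985, its column medians were 5.286 to 5.306, and how it was scaled is not stated. It was an alternative setting.

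Intensities were processed with neqc (offset 16) in limma 3.58.1, R 4.3.3. The filter was detection p under 0.05 on 3 or more arrays. The annotation table gave 1 symbol for 32093 probes, several for 16 (left out) and none for 13172; 32035 matched a RefSeq gene. The probe with the highest mean signal stood for a gene; 4680 genes had several kept probes, and probes of 1 gene were called in opposite directions. The model had 1 mean per group, a shared spread (9 residual degrees of freedom, prior 4.67) and an intensity trend. Changes against a group with no detected array are lower bounds; differences of effects are fitted values without such a bound. The number of arrays limits the precision. The fit was tested on simulated data.

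Genes named were the 12 largest positive and 12 largest negative calls, the 10 largest of each class, up to 10 with opposite signs, the 3 largest of each of 38 lists (682 genes, 503 measured) and 15 fixed genes, from which those shown were taken; Cldn11, Fa2h, Slc1a2, Tbx21, Nmb, Tshz1, Sp8, Sp9, Sst, Becn1, Smarce1 and Slc6a3 were chosen after their values were seen. Members and lists were chosen with earlier results of these data known. Alternatives covered background, scaling, filters, probes, slides, replicate numbers, weights and left-out arrays.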

Additional observations from a re-analysis of the deposited data

Results flagged for a closer look

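Among 80 sets of 4 NG2 tumor values, 5 had 1 tumor far from the other 3 by Dixon's criterion, which chance gives for about 1 set in 20. NG2 tumor 1 was low for Mcam, at 9.603 against 11.32 for the nearest, and high for Dlx2 (6.118, nearest 4.784) and for Fa2h (9.823, nearest 8.393). NG2 tumor 2 was low for Mcm3, at 9.594 (nearest 10.4), and slightly high for Tshz1, at 11.26 (nearest 11.18).

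Tumor effects differed between the models by the test of the difference itself, with opposite signs that each passed, for the 10 genes of this kind with the largest values. The differences were 7.134 for Calb2, 5.16 for Meis1, -4.904 for Mcam, 4.431 for Col26a1, -4.272 for Plxnb3, 4.268 for Igfbpl1, 4.212 for Alx4, -4.096 for Sh3tc2, -3.785 for Atp10b and -3.633 for Afap1l1. All 10 kept their direction under every alternative that gave a value. The second probes of Col26a1 (0.26), Alx4 (0.40) and Sh3tc2 (-1.04) did not pass (limma adjusted p = 0.68, 0.411 and 0.178).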

How the results depend on the processing

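Of the 65 called genes in the text, 31 kept their call under every alternative run, 34 lost it under at least 1 and 20 lost it without 1 array. Background, scaling, filter or probe settings ended the calls of 15: Dhh, Gata6, Fa2h, Sst, Agt, Mcm3, Cdkn1a, Cdc6, Phlda3, Trh, Gal, Thy1, Smarce1, Bbc3 and Slc1a2. The call count was 402 with cyclic loess, 312 scaled to the median, 433 with normexp, 462 with no background correction, 458 with the authors' table and 437 with the slide as a random block (correlation -0.108). It was 208 among the 8454 genes detected on all arrays (66 tumors, 40 controls, 102 both), 184 with the slide as a fixed block (52, 72 and 60), 73 within slides 1 and 2 (10, 42 and 21) and 829 with array weights (tumors 313, both 326). Scaling to the median left 99 in the control class. Without 1 array the count was 237 to 631. Genes carried by tumors, carried by controls and carried by both then ranged from 56 to 251 (tumors), 101 to 154 (controls) and 68 to 226 (both). Placing genes by which contrast passes gave 220 for tumors and 173 for controls, while 17 passed in both contrasts and 43 in neither. Values raised to the lowest detected signal, chosen after seeing the data, gave 478. The labels do not say whether replicate numbers pair samples. Deviations from the group means correlated at -0.0589 to 0.0351 between tumor and control arrays of the same number. Between arrays of different number they correlated at -0.0875 to 0.0929. With so few arrays, these values cannot exclude a pairing. A replicate block gave 190 calls, 180 of them shared, and no classes. Nes was -0.10 with the mean over probes and -0.13 within slides 1 and 2. The cause of these changes was not tested.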

Other observations

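Met, a receptor tyrosine kinase, varied among NG2 tumors, at 6.01, 13.40, 12.24 and 4.83, while Nestin tumors had 5.50, 6.40 and 5.04, Nestin controls 4.82, 4.62 and 4.59 and NG2 controls 5.11, 4.56 and 4.83. It was thus high in NG2 tumors 2 and 3 alone, and its difference of tumor effects was -3.31 with a 95% interval of -8.26 to 1.63. Cxcl10, a chemokine of the interferon response, reached 9.38, 11.44 and 10.77 in Nestin tumors and 9.86, 11.22, 10.18 and 5.93 in NG2 tumors, with 4.65 to 5.41 in Nestin controls and 4.68 to 5.08 in NG2 controls. Dlx1, a homeobox factor of GABA neurons, differed by 4.01 (95% interval 1.69 to 6.33), which did not pass over all arrays (limma adjusted p = 0.055) and passed without NG2 tumor 1 (4.88, limma adjusted p = 0.000766).

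The choroid plexus markers Ttr and Kl averaged 4.738 to 12.1 across Nestin tumors (Nestin controls 6.231 to 6.673) and 4.672 to 6.251 across NG2 tumors (NG2 controls 6.114 to 6.784). The erythrocyte markers Hba-a1 and Alas2 averaged 7.436 to 12.39 across Nestin tumors (Nestin controls 9.029 to 10.27) and 7.214 to 9.485 across NG2 tumors (NG2 controls 9.418 to 10.06). Of 5028 detected probes without a gene name here, 119 passed for the difference of tumor effects when all kept probes were fitted together.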
